A study of Homo sapiens with 10 samples.

Results

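The cytosolic ribosome is built from ribosomal RNA and from the products of a set of nuclear genes, the RPL genes for the large subunit and the RPS genes for the small subunit. Here these genes were taken as every gene symbol that begins with RPL or RPS and continues with a number and at most a final A or X, together with RPLP0, RPLP1, RPLP2 and RPSA. This rule gave 77 of the 23426 genes in the expression tables, 0.329% of them, with 46 genes of the large and 31 of the small subunit. Genes of the mitochondrial ribosome, pseudogenes, and the divergent copies whose symbols carry an added L, such as RPL39L, fall outside the rule, as does FAU, whose ribosomal protein is made as a fusion with a ubiquitin-like protein.

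Each ribosome holds most of these proteins in a single copy, and cells make them in step from many separate genes. Their messenger RNAs are among the most abundant in growing cells and typically begin with a run of pyrimidines, the 5′ terminal oligopyrimidine (TOP) tract, through which mTOR signalling controls their translation. Human ribosomal protein genes have left many processed pseudogenes in the genome, so a read from such a messenger RNA can match more than 1 place.

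RNA was sequenced from 2 established breast cancer cell lines, MDA-MB-468, labelled basal, and ZR75-1, labelled luminal, after 6 h with DMSO, the solvent, or with PKC412 (midostaurin, an inhibitor of many kinases) at 1 μM, the dose in the labels and methods (some of the study's figure legends give a lower one). The 4 groups were MDA-MB-468 with DMSO (2 samples), MDA-MB-468 with PKC412 (3 samples), ZR75-1 with DMSO (2 samples) and ZR75-1 with PKC412 (3 samples). Levels were deposited as FPKM, fragments scaled to transcript length and to the number of mapped fragments, so levels of different genes can be compared per length. Each subtype is represented by 1 line, so subtype and line cannot be told apart. FPKM values are relative to all mapped fragments of a sample, so a lower value does not give the amount of RNA per cell or the number of cells.

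The marker genes followed the labels: 6 of 7 basal markers passed the test as higher in MDA-MB-468 and 7 of 9 luminal markers as higher in ZR75-1 in DMSO, the exceptions being CDH3, which was higher in ZR75-1, and KRT19 and PGR, which did not pass. The sum of FPKM over all genes ran from 599228 to 835069 per sample, and the read depth behind it is not known, so the precision of a value comes only from the spread between samples; the labels do not say that these came from separate cultures. PKC412 replicate 2 of MDA-MB-468 lay closer to the DMSO samples of its line than replicates 1 and 3 did in the levels of these genes, which is described with the response to PKC412. Of the markers of blood cells and fibroblasts, PTPRC, CD3E, COL3A1 and DCN were at or near 0 in every sample, and COL1A1, a collagen gene, read 0.943 and 0.899 FPKM in DMSO and 1.52, 1.38 and 1.47 in PKC412 in MDA-MB-468, and 2.25 and 2.75 and 9.11, 6.65 and 11.1 in ZR75-1. COL1A1 rose with PKC412 in ZR75-1 (log2 fold change 1.49, adjusted p = 0.0181 by limma).

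To show how these messenger RNAs begin, the annotated starts of 62 of the 77 genes were read from the RefSeq promoter table (GRCh38.p14, while the expression files use hg19). The motif searched was a C followed by at least 4 bases that are each C or T, on the strand that reads as the messenger RNA, with the C at most 3 bases from an annotated start. It was found at a start of 52 of the 62 genes (83.9%), against 4374 of all 27305 genes in that table (16%). The following 30 bases, 12 before the start and 18 from it on, belong to genes that stand at the ends of the ranges described below, with the tract in capitals and lower case elsewhere.
RPS18 (chr6:33272063-33272092, plus strand): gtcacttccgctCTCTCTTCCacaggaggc
RPS10 (chr6:34426052-34426081, minus strand): cgcatgctccttCCTTTCCagccccggtac
RPS27 (chr1:153990750-153990779, plus strand): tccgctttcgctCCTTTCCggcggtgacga
RPL35 (chr9:124861940-124861969, minus strand): cccgcctacttcCTCTTTCCCTCggagcgg
RPLP2 (chr11:809955-809984, plus strand): cgtcggcgccttCCTTTTCCTCCCTgtcgc
RPL21 (chr13:27251546-27251575, plus strand): ccccgcctctttCCTTTCggccggaaccgc
RPL15 (chr3:23917086-23917115, plus strand): cggaaagagggtggctgaggtgggggagga
RPL15 (chr3:23917120-23917149, plus strand): aaaaggcattgtgggagtacagctctttcc
RPS18 and RPL15, which had the highest values with PKC412 relative to DMSO, differed in this feature: RPS18 has a tract of 9 bases at its start and none of the 3 annotated RPL15 starts has one within 3 bases. RPLP2 and RPL35, near the other end, have tracts of 13 and 11 bases, and RPL21, with the most negative values, has 6. RPS10 and RPS27, which differed in opposite directions between the lines, both have a tract of 7 bases. Whether tract length goes with the PKC412 values was not tested. A missing match says only that these letters are not in that window.

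The 77 genes together held a large share of all expression. They took 23.7% and 23.1% of the summed FPKM in the DMSO samples of MDA-MB-468 and 27% and 25.9% in those of ZR75-1. With PKC412 the share was 18.9%, 23.3% and 20.4% in MDA-MB-468 and 24.4%, 25.8% and 21.2% in ZR75-1. The 2 lines did not overlap in DMSO but did in PKC412, and replicate 2 lay between the DMSO samples in MDA-MB-468 and just below both in ZR75-1. For MDA-MB-468 the mean share was 23.4% ± 0.448 (SD, n = 2) with DMSO and 20.8% ± 2.21 (SD, n = 3) with PKC412. For ZR75-1 it was 26.4% ± 0.798 (SD, n = 2) with DMSO and 23.8% ± 2.36 (SD, n = 3) with PKC412. The balance of the subunits moved little, with a mean large-subunit gene at 0.680 to 0.741 times the mean small-subunit gene over the 10 samples. The 76 genes of the mitochondrial ribosome, a separate ribosome with its own proteins, held 0.987% to 1.38%.

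**Figure D1:**
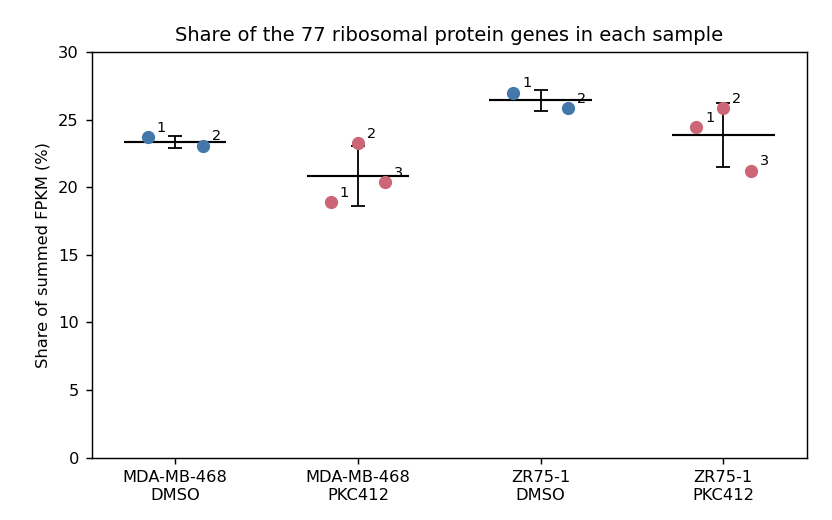
Share of the summed FPKM (%, vertical axis) held by the 77 ribosomal protein genes in each sample (points, numbered by replicate) of the 4 groups; lines and bars are the group mean and SD. The lowest sample of each line is a PKC412 sample, at 18.9% for MDA-MB-468 and 21.2% for ZR75-1.

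The samples with the lowest shares also stood apart in how levels depended on base composition and length. PKC412 replicate 1 of MDA-MB-468 and replicate 3 of ZR75-1, the lowest of their lines, had the lowest slope on GC content (-0.279 and -0.360 log2 units per 10 percentage points, relative to the line mean) and the highest slope on transcript length (0.0922 and 0.141 per doubling) of their lines. The part of these slopes in the shares was not tested.

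Most of the 77 genes were expressed at high levels, with means from 213 FPKM (RPL27A) to 6734 FPKM (RPL41) apart from RPL21. The median gene had a mean of 1852 FPKM over the 10 samples, and 64 genes had a mean above 1000. The 5 highest were RPL41 (6734 FPKM), which encodes the shortest of the ribosomal proteins, RPL37A (5999.7), RPS18 (5991), RPS21 (5377) and RPL38 (5289). No gene was at 0 in any sample.

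RPL21, for a protein of the large subunit, was the only gene whose mean lay under 1/20 of the median gene. Its row read 73.3 and 144 FPKM in DMSO and 23.8, 138 and 22.2 in PKC412 in MDA-MB-468, and 183 and 43.8 in DMSO and 15.98, 37.0 and 95.8 in PKC412 in ZR75-1. These values overlapped between all groups, and the SD within groups, 1.29 on the log2 scale, was the largest of the 77 genes. The row of the pseudogene RPL21P28 held 2233 and 2079.6 FPKM in DMSO and 1409, 2182 and 1608 in PKC412 in MDA-MB-468, and 1929.5 and 1853 in DMSO and 1370.4, 1219.8 and 1036 in PKC412 in ZR75-1. The RPL21P28 row thus stood near the median ribosomal protein gene, as the plot of both rows shows, and RPL21 held between 1.2% and 8.7% of the sum of RPL21 and its pseudogene rows. In GENCODE release 29 (GRCh38), RPL21 lies on the plus strand at chr13:27251309-27256691, and every 50-base stretch of its coding sequence also occurs in another annotated gene, 61 genes in all. Values of RPL21 are therefore uncertain, and how reads were divided between RPL21 and RPL21P28 was not tested.

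**Figure D2:**
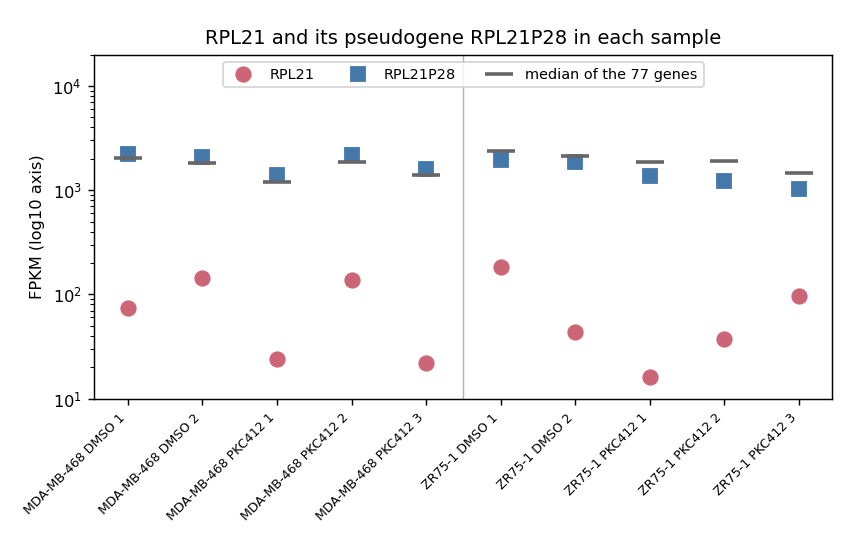
FPKM (log10 axis) of RPL21 (circles), of the pseudogene row RPL21P28 (squares) and of the median of the 77 genes (short lines) in each of the 10 samples. RPL21 stays under 200 in all of them and RPL21P28 stays above 1000.

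Other rows may share reads in the same way to a smaller degree. Of the 77 genes, 76 have at least 1 named pseudogene in GENCODE, with a median of 10, and the median gene shares 48.8% of the 50-base stretches of its coding sequence with another gene. All stretches are shared for RPL21, RPL39, RPL41, RPS26, RPS27 and RPS28, under 5% are for 12 genes, and none is for RPL38. The expression tables hold rows for 28 pseudogenes and 3 read-through genes of this set, and most of these rows were near 0. Besides RPL21P28, the rows of 2 RPL13A pseudogenes, RPL13AP5 and RPL13AP20, were high: the RPL13A row held 19.2% to 23.6% of its family sum, and the RPL13AP5 row read 2668 and 1970.1 FPKM in DMSO and 1256, 2180.0 and 1516 in PKC412 in MDA-MB-468. The RPSA row, for a protein of the small subunit that is also known as the laminin receptor, held 59% to 60.4% of its family sum, the RPS26 row 59.9% to 67.5% and the RPL23 row 82.7% to 86.8%. The length of the reads and the treatment of reads with several matches are not given in the sources used here.

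Spread between replicate samples differed among the genes. The median SD within groups was 0.236 on the log2 scale. After RPL21, the widest were RPL35 (0.533), whose protein sits near the exit of the peptide tunnel, RPS28 (0.434), RPLP2 (0.432) and RPL36 (0.427). The narrowest were RPL4 (0.113), RPL22 (0.124), RPL14 (0.124), RPS25 (0.14) and RPS23 (0.141).

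PKC412 samples had lower levels of nearly all these genes in both lines, but no single gene passed the test. The log2 fold change, PKC412 against DMSO, was below 0 for 75 of the 77 genes in MDA-MB-468, where 33% of the 16071 genes tested were below 0, and for 75 of the 77 in ZR75-1, where 33.5% were. For MDA-MB-468 the median of the 77 was -0.377 and for ZR75-1 -0.341, against 0.109 and 0.0677 over all genes tested. With limma on log2(FPKM + 1) and Benjamini-Hochberg adjustment over all genes tested, 0 of the 77 passed an adjusted p of 0.05 in either line (1.26% and 0.946% of all genes tested did). RPS26 had the lowest adjusted p in MDA-MB-468, 0.280, and RPL34 in ZR75-1, 0.238, and 4 and 8 genes had an unadjusted p under 0.05 (16.4% and 11.2% of all genes tested did). None reached a 3-fold ratio of mean FPKM in either line, where 7.21% and 4.09% of the genes above 0.1 FPKM did. An exact permutation test of 2 against 3 samples cannot give a p under 0.1.

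**Figure D3:**
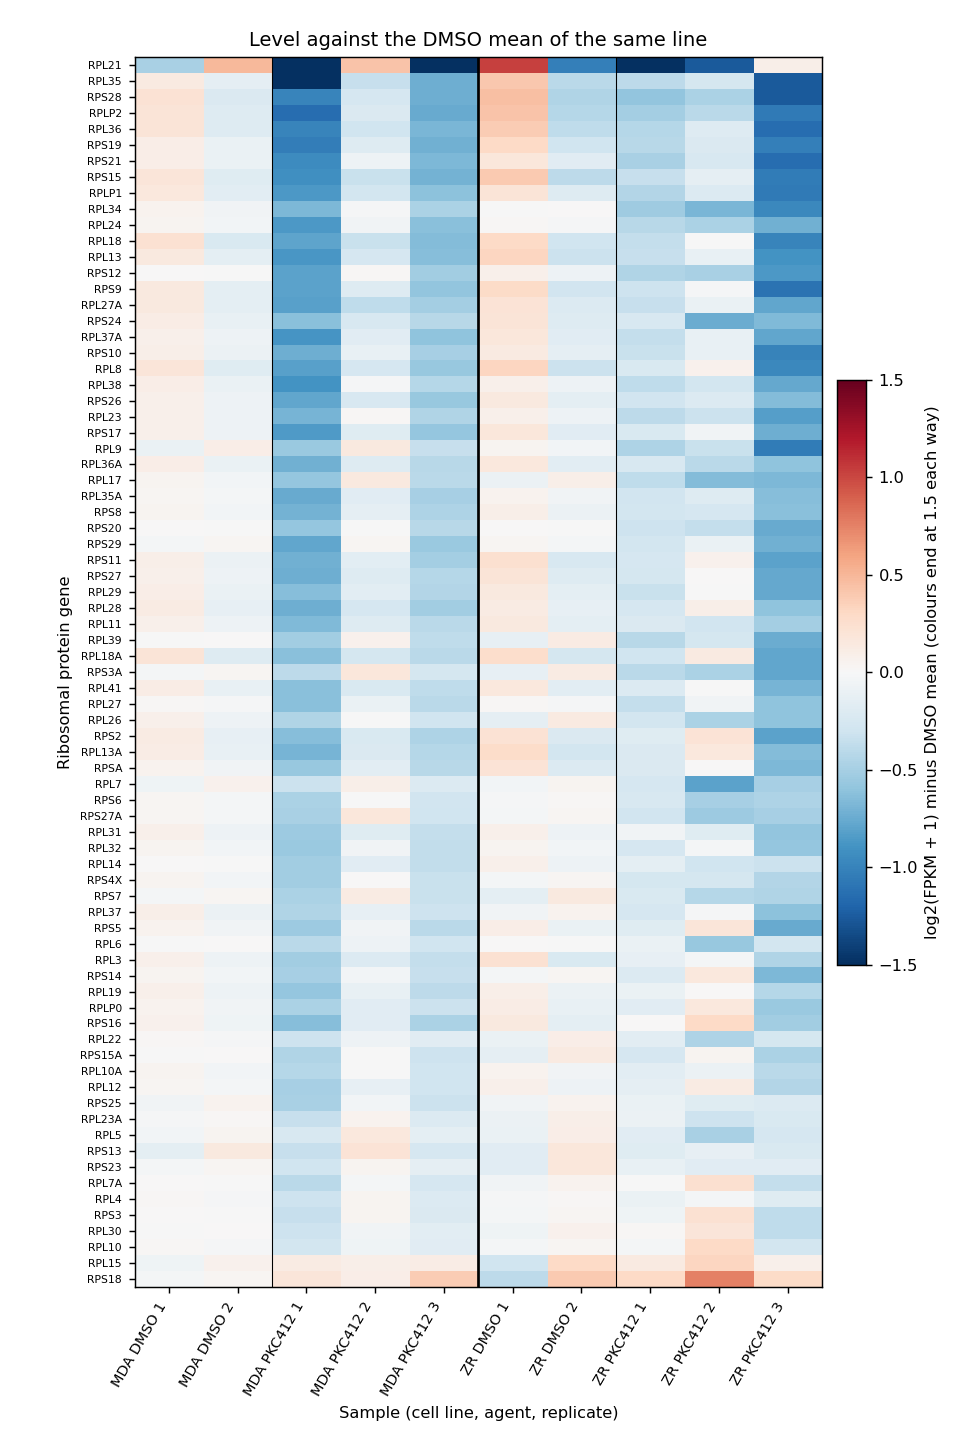
Each row is 1 of the 77 genes and each column a sample; colour is log2(FPKM + 1) minus the mean of the DMSO samples of the same line, blue for lower and red for higher, with colours ending at 1.5 each way. PKC412 replicates 1 and 3 of MDA-MB-468 and replicate 3 of ZR75-1 are blue in nearly all rows, and RPS18 and RPL15, at the bottom, have no blue PKC412 sample.

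The lower level was not spread evenly over the PKC412 samples. In MDA-MB-468, 75 of the 77 genes were below both DMSO samples in replicate 1 and in replicate 3, but 47 were in replicate 2, where 16 were above both. In ZR75-1, 64, 38 and 74 of the 77 were below both DMSO samples in replicates 1, 2 and 3. Replicate 1 of MDA-MB-468 was the lowest of the 5 samples of its line for 74 genes, and replicate 3 of ZR75-1 for 65. Those samples also had the lowest FPKM sums of their lines, 599228 and 610275. The counts per sample were not made for all genes tested, so how far they are particular to the 77 is not known. All PKC412 samples lay below all DMSO samples for 47 genes in MDA-MB-468 and 35 in ZR75-1, against 16.3% and 6.98% of all genes tested. The reverse held for 2 genes, RPL15 and RPS18, in MDA-MB-468 and for 0 in ZR75-1 (39.6% and 14.8% of all genes tested). Without replicate 2 of MDA-MB-468 the median log2 fold change of that line was -0.506, and without replicate 1 it was -0.252; without replicate 3 of ZR75-1 the median of that line was -0.218. When each sample was rescaled to the same FPKM sum, the medians were -0.177 and -0.134 and 64 and 62 of the 77 genes were below 0; rescaling by median ratios gave -0.501 and -0.457.

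Genes of both subunits had values below 0. In MDA-MB-468, 45 of 46 large-subunit genes and 30 of 31 small-subunit genes were below 0, with medians of -0.368 and -0.426. The same counts, 45 and 30, were found in ZR75-1, with medians of -0.336 and -0.366.

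RPS18, whose protein lies in the head of the small subunit, and RPL15, of the large subunit, were the 2 genes above 0 in both lines. RPS18 read 7145 and 7444 FPKM in DMSO-treated and 8298, 7786 and 9511 in PKC412-treated MDA-MB-468 cells, and 2412 and 4188 FPKM in DMSO-treated and 3897, 5359 and 3873 in PKC412-treated ZR75-1 cells. In MDA-MB-468 all PKC412 samples lay above both DMSO samples, and in ZR75-1 DMSO replicate 1 was the lowest and the groups overlapped. The log2 fold changes were 0.22 ± 0.28 (SE) and 0.44 ± 0.28 (SE), with adjusted p of 0.644 and 0.604 by limma. RPL15 read 363 and 399 FPKM in DMSO-treated and 414, 405 and 413 in PKC412-treated MDA-MB-468 cells, and 392 and 590.0 FPKM in DMSO-treated and 529.8, 603 and 508 in PKC412-treated ZR75-1 cells. Its levels were nearly flat, with log2 fold changes of 0.11 ± 0.17 and 0.18 ± 0.17 (SE), neither of which passed; its value in MDA-MB-468 turned to -0.02 with median-ratio rescaling and to -0.04 with adjustment for GC content, and its value in ZR75-1 was -0.114 without DMSO replicate 1 and 0.475 without DMSO replicate 2.

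The 3 genes of the ribosomal stalk, which recruits the elongation factors, were below 0 in both lines. RPLP2, for the smaller acidic stalk proteins with RPLP1, read 3029.8 and 2303 FPKM in DMSO and 1196, 2282 and 1568 in PKC412 in MDA-MB-468, where the groups did not overlap. In ZR75-1 it read 2353 and 1306 and 1228, 1319 and 843, where they did. Its log2 fold changes were -0.70 ± 0.36 and -0.66 ± 0.36 (SE), among the most negative of the set, and did not pass. RPLP1 had -0.59 and -0.57, without overlap of the groups in either line. RPLP0, the stalk base, had -0.32 and -0.19.

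RPL35 and RPS28 stood beside RPLP2 at the low end. RPL35 read 2878 and 2386 FPKM in DMSO and 889, 2058 and 1579.8 in PKC412 in MDA-MB-468, with a log2 fold change of -0.88 ± 0.44 (SE, adjusted p = 0.325 by limma). RPS28, near the exit of the messenger RNA channel, read 3123 and 1678 FPKM in DMSO and 1514, 1651 and 958 in PKC412 in ZR75-1, with -0.77 ± 0.36 (SE, adjusted p = 0.467 by limma). In both cases the groups did not overlap and 1 PKC412 sample was well below the others. RPL34 read 962 and 972 and 669, 602 and 493 FPKM in ZR75-1, with -0.73 ± 0.21 (SE), the lowest adjusted p of the set in that line. RPL21 had the most negative values, -1.27 and -1.19, with 95% intervals of -3.62 to 1.08 and -3.54 to 1.16 that hold both signs.

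**Figure D4:**
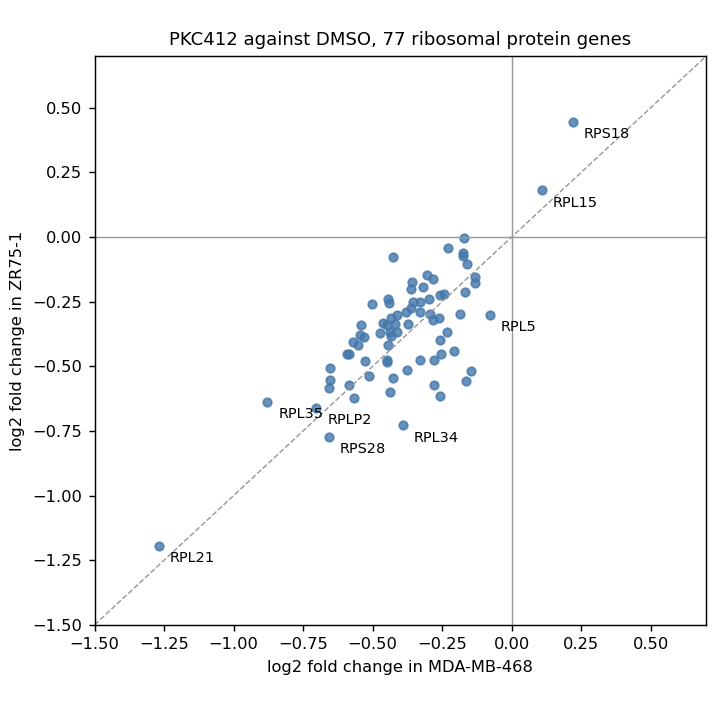
log2 fold change, PKC412 against DMSO, of each of the 77 genes (points) in MDA-MB-468 (horizontal axis) and ZR75-1 (vertical axis); the dashed line marks equal values. In both lines 75 genes lie below 0, and RPS18 and RPL15 are the points above 0.

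RPL5 and RPL11, which with 5S ribosomal RNA form the particle that can bind and restrain MDM2, had different values in MDA-MB-468. RPL5 read 1632 and 1730.0 FPKM in DMSO and 1419.9, 1877 and 1514 in PKC412 there, with overlapping groups and a log2 fold change of -0.08 ± 0.17 (SE). RPL11 read 4533 and 4046 and 2703, 3758 and 3224, without overlap, with -0.42 ± 0.20 (SE). In ZR75-1 the values were -0.30 for RPL5 and -0.34 for RPL11, and neither gene passed in either line. Of 11 genes among those whose inherited loss causes Diamond-Blackfan anaemia, a failure of red cell formation (a partial list), 10 were below 0 in each line, RPL15 being the exception, with medians of -0.427 and -0.372. RPS19, the gene most often affected in that disease, read 4191 and 3629 FPKM in DMSO and 1897, 3409.6 and 2359.7 in PKC412 in MDA-MB-468, with -0.65 ± 0.34 (SE). In ZR75-1 its value was -0.55 ± 0.34 (SE) and the groups overlapped.

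In MDA-MB-468, the log2 fold change of the 77 genes was lower for those with a higher GC content of the coding sequence (Pearson r = -0.386, Spearman rho = -0.542), and in ZR75-1 there was little relation (r = 0.0884, rho = 0.0827). These are relations across genes of the same libraries and not across independent replicates. For the share of the coding sequence that also occurs in other genes, r was 0.152 for MDA-MB-468 and -0.0217 for ZR75-1. With levels adjusted for GC content, the medians of the 77 were -0.586 for MDA-MB-468 and -0.515 for ZR75-1, with 76 and 75 genes below 0. This adjustment also rescales each sample to its expressed genes. Its medians are therefore to be set beside those of median-ratio rescaling, given above, and not beside the unscaled ones. With adjustment for GC content and transcript length, chosen after seeing the data, the medians were -0.455 and -0.403 and 75 genes were below 0 in each line.

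Other genes of protein synthesis showed smaller or mixed values. The 19 translation factors and other TOP messenger RNAs had median log2 fold changes of 0.0729 for MDA-MB-468 and -0.00685 for ZR75-1, signs that changed with the scaling, and 0 passed in either line; with adjustment for GC content 1, EIF4B, passed as higher in MDA-MB-468 (adjusted p = 0.0382 by limma). EEF1A1, the factor that brings aminoacyl-tRNA to the ribosome, read 1980.3 and 2461 FPKM in DMSO and 3481, 2919 and 3239 in PKC412 in MDA-MB-468, with a log2 fold change of 0.54 ± 0.30 (SE). EEF2, the translocation factor, had 0.32 in that line and 0.55 in ZR75-1. FAU, the fusion gene outside the rule, had log2 fold changes of -0.52 and -0.37 in the 2 lines, below 0 like most of the 77 genes, and did not pass. The 76 mitochondrial ribosomal protein genes had medians of -0.213 and -0.148, with 50 and 55 below 0 and 0 passing. Of all genes tested, 33% and 33.5% were below 0. After rescaling to the same FPKM sum these medians were -0.0152 and 0.0471. Median-ratio rescaling gave -0.335 and -0.251, adjustment for GC content -0.38 and -0.279, and GC content with transcript length -0.349 and -0.269.

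Among 40 ribosome biogenesis factors, 1 fell in MDA-MB-468 (1.26% of all genes tested passed there) and 0 passed in ZR75-1. This was BYSL, a factor of small-subunit maturation, which read 39.6 and 37.5 FPKM in DMSO and 22.2, 26.2 and 23.4 in PKC412 in MDA-MB-468. Its log2 fold change was -0.67 ± 0.12 (SE, adjusted p = 0.0498 by limma). It kept its sign but did not pass with median-ratio rescaling (-0.787, adjusted p = 0.126 by limma). The same held with rescaling to the same FPKM sum (-0.480, adjusted p = 0.108 by limma). The count of factors that fell depended on the scaling, with 0 after rescaling to the same sum and 3 with adjustment for GC content. In ZR75-1 BYSL read 12.9 and 12.7 and 12.6, 14.1 and 11.1 FPKM, and the difference between the lines did not pass (adjusted p = 0.344 by limma). For the 40 factors the medians of the lines were 0.12 and 0.13, on the other side of 0 from the ribosomal protein genes. They were 0.00662 and 0.0211 with median-ratio rescaling. With adjustment for GC content, which also rescales each sample, they were below 0 (-0.155 and -0.0075).

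Whether the response to PKC412 differed between the lines was tested for each gene as the difference of the 2 effects. None of the 77 genes passed (0.268% of all genes tested did), the lowest adjusted p was 0.951, 0 of them had an unadjusted p under 0.05 (7.05% of all genes tested did), and the median difference was -0.0581. The largest values were 0.39 for RPS3A, 0.37 for RPL7 and 0.36 for RPL9 above 0, and -0.35 for RPS16 below 0. The 95% interval was -0.28 to 1.07 for RPS3A and -1.23 to 0.53 for RPS16, so differences past 1 log2 unit lie inside both intervals.

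The lines themselves differed in the level of many of these genes. In DMSO, 27 of the 77 passed, against 42.4% of all genes tested, with 9 higher in MDA-MB-468 (26.5% of all genes tested) and 18 higher in ZR75-1 (15.9%). In PKC412, 34 passed, against 58.6%, with 9 higher in MDA-MB-468 (37%) and 25 higher in ZR75-1 (21.6%). Those that passed were 35.1% of the 77 in DMSO and 44.2% in PKC412, and those higher in ZR75-1 were 23.4% and 32.5%. The median log2 difference, MDA-MB-468 against ZR75-1, was -0.300 in DMSO and -0.393 in PKC412, while over all genes tested it was 0.112 and 0.195. The median of the 77 was -0.484 and -0.586 with median-ratio rescaling and -0.507 and -0.619 with adjustment for GC content, and without ZR75-1 DMSO replicate 1 it was -0.198 in DMSO. The difference was below 0 for 52 of the 77 genes in DMSO and 53 in PKC412, against 41.3% and 38.4% of all genes tested. The split of the calls depended on the scaling: with median-ratio rescaling 1 and 15 genes passed in DMSO and 2 and 24 in PKC412, and with adjustment for GC content 0 and 14 in DMSO and 2 and 26 in PKC412, and with adjustment for GC content and transcript length 3 and 20 in DMSO and 8 and 37 in PKC412, for higher in MDA-MB-468 and higher in ZR75-1 respectively. The count in DMSO also rested on each of the 4 DMSO samples. It was 7 without MDA-MB-468 replicate 1 and 5 without replicate 2, and 12 without ZR75-1 replicate 1 and 14 without replicate 2. In PKC412 it was 21 without MDA-MB-468 replicate 3.

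The DMSO and PKC412 comparisons use means of different samples but 1 shared estimate of spread, so their calls are not independent. Without MDA-MB-468 PKC412 replicate 3 the number passing in DMSO was 20, and without ZR75-1 PKC412 replicate 3 it was 30. The comparisons gave much the same order of genes. All 9 genes higher in MDA-MB-468 in DMSO were also higher in PKC412 (RPL5, RPL10, RPL36A, RPS3, RPS7, RPS10, RPS12, RPS18 and RPS25). Of those higher in ZR75-1, 17 were shared, 94.4% of the 18 in DMSO and 68% of the 25 in PKC412. The sign was the same for 74 of the 77 genes, and the 2 sets of log2 differences had r = 0.968 and rho = 0.964 across the 77 genes. Shared calls, signs and correlations were not computed over all genes tested, so this agreement does not set the 77 genes apart. For 7 genes all 5 MDA-MB-468 samples lay above all 5 ZR75-1 samples (29.7% of all genes tested), and for 16 genes the reverse held (18.1%).

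**Figure D5:**
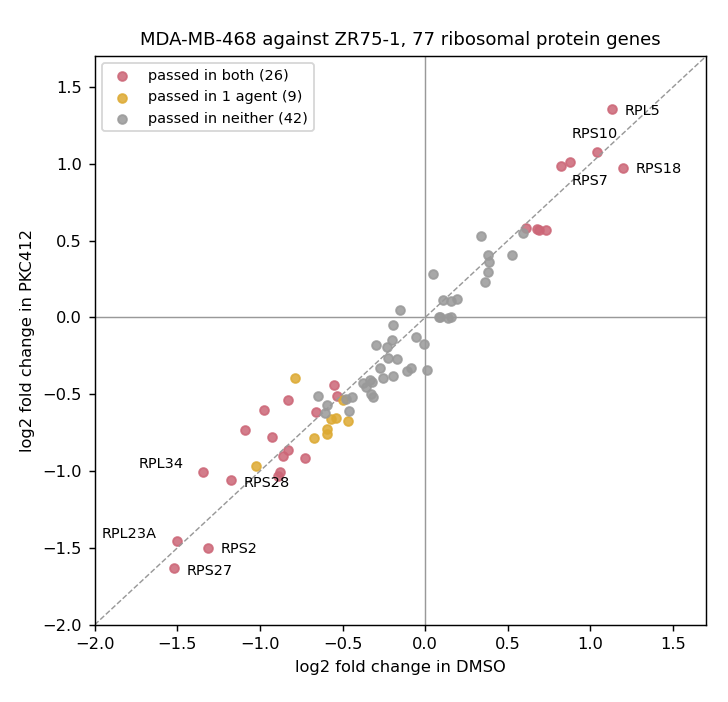
log2 fold change, MDA-MB-468 against ZR75-1, of each of the 77 genes in DMSO (horizontal axis) and in PKC412 (vertical axis), coloured by whether the adjusted p was under 0.05 in both agents (26 genes), in 1 (9) or in neither (42); the dashed line marks equal values. RPL5, RPS10, RPS7 and RPS18 lie at the upper right and RPS27, RPL23A and RPS2 at the lower left.

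RPS27 and RPL23A had the largest differences toward ZR75-1 in DMSO, and RPS27 and RPS2 in PKC412. RPS27, a zinc finger protein of the small subunit, read 2499 and 2251 FPKM in DMSO-treated and 1429, 2079 and 1768 in PKC412-treated MDA-MB-468 cells, and 7816 and 5939 FPKM in DMSO-treated and 5678, 6857 and 3993 in PKC412-treated ZR75-1 cells. The 2 lines did not overlap, and every 50-base stretch of its coding sequence occurs in other genes too. The differences were -1.52 ± 0.30 (SE, adjusted p = 0.00402 by limma) in DMSO and -1.63 ± 0.25 (SE, adjusted p = 0.000665) in PKC412, which correspond to 2.87-fold and 3.09-fold higher levels in ZR75-1. RPL23A, which lies at the exit of the peptide tunnel and contacts the signal recognition particle, read 534 and 545 FPKM in DMSO-treated and 422, 558 and 468.2 in PKC412-treated MDA-MB-468 cells, and 1432 and 1628 FPKM in DMSO-treated and 1432, 1232 and 1299 in PKC412-treated ZR75-1 cells. Its ZR75-1 samples were all more than 2 times its MDA-MB-468 samples, with -1.4997 ± 0.16 and -1.46 ± 0.13 (SE), and its adjusted p, 0.000159 and 3.81e-05 by limma, were the lowest of the set.

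RPS2, at the entry of the messenger RNA channel, read 3373 and 2836 FPKM in DMSO-treated and 1987, 2636 and 2248 in PKC412-treated MDA-MB-468 cells, and 8901 and 6621 FPKM in DMSO-treated and 6781, 8870.2 and 4415 in PKC412-treated ZR75-1 cells. ZR75-1 was higher throughout, with the narrowest gap between ZR75-1 PKC412 replicate 3 and MDA-MB-468 DMSO replicate 1, and the differences were -1.31 ± 0.34 and -1.498 ± 0.28 (SE). RPL34 had -1.34 ± 0.23 and -1.01 ± 0.18 (SE), RPS28 -1.17 ± 0.39 and -1.06 ± 0.32 (SE), and RPLP0 -0.88 ± 0.24 and -1.01 ± 0.20 (SE), and all of these passed in both agents. RPL7, RPL9 and RPS20 also passed in both, with DMSO differences of -0.98, -1.09 and -0.93. RPS26, whose coding sequence is also fully shared with other genes, had -0.89 and -1.03, and its pseudogene row RPS26P11 read 500.0 and 410.4 FPKM in MDA-MB-468 against 1074 and 755 in ZR75-1 in DMSO. RPS21 passed in PKC412 (-0.97 ± 0.31 (SE), adjusted p = 0.0256 by limma), with -1.02 ± 0.38 (SE) and an adjusted p of 0.0585 in DMSO, and the difference between these values did not pass.

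In the other direction, RPL5 was the only 1 of the 9 genes higher in MDA-MB-468 in DMSO that also passed there with median-ratio rescaling. It read 1632 and 1730.0 FPKM in DMSO-treated and 1419.9, 1877 and 1514 in PKC412-treated MDA-MB-468 cells, and 715 and 823 FPKM in DMSO-treated and 680.1, 548 and 647 in PKC412-treated ZR75-1 cells. The lines did not overlap, with 1.13 ± 0.18 (SE, adjusted p = 0.00137 by limma) in DMSO and 1.35 ± 0.15 (SE, adjusted p = 0.000107) in PKC412, or 2.19-fold and 2.56-fold. With median-ratio rescaling the adjusted p was 0.00861 and 0.000718, and with adjustment for GC content 0.0507 and 0.0149. RPL11, its partner, did not pass in either agent (0.38 and 0.29).

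RPS18, the third most highly expressed gene of the set, read 7145 and 7444 FPKM in MDA-MB-468 against 2412 and 4188 in ZR75-1 in DMSO. The difference was 1.198 ± 0.30 (SE, adjusted p = 0.0133 by limma) in DMSO and 0.98 ± 0.25 (SE, adjusted p = 0.00998) in PKC412, and with median-ratio rescaling these adjusted p were 0.0572 and 0.0548. RPS10, at the beak side of the small subunit head, read 3137 and 2777 FPKM in DMSO-treated and 1776, 2737 and 2087 in PKC412-treated MDA-MB-468 cells, and 1578 and 1304 FPKM in DMSO-treated and 1137, 1328 and 716 in PKC412-treated ZR75-1 cells. The lines did not overlap, with 1.04 ± 0.32 and 1.08 ± 0.26 (SE). RPS7 (0.88 ± 0.22 and 1.01 ± 0.18, SE) and RPS12 (0.82 ± 0.29 and 0.99 ± 0.23, SE) likewise passed in both agents. Without overlap in either agent, RPL10, which is placed late in the maturation of the large subunit, RPL36A, RPS3 of the messenger RNA entry channel and RPS25 had smaller differences, of 0.73, 0.61, 0.68 and 0.69 in DMSO.

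Within the stalk, RPLP0 was higher in ZR75-1, while RPLP1 (-0.61 in DMSO, adjusted p = 0.187 by limma) and RPLP2 (0.59, adjusted p = 0.273) did not pass and had opposite signs.

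By chromosome (GENCODE release 29, GRCh38), the members of 5 of the 15 chromosomes with at least 3 of the genes all lay on one side of 0 in both agents, and those of the other 10 did not. These counts were not tested, and most of the 77 genes, 52 in DMSO and 53 in PKC412, were below 0. The 4 on chromosome 6, RPL10A, RPS10, RPS12 and RPS18, were all above 0 in both agents, with medians of 0.932 and 0.980 and 3 passing in each. The 3 on chromosome 4 (RPL9, RPL34 and RPS3A) were all below 0, with medians of -1.09 and -0.733, as were the 4 on chromosome 8 (RPL7, RPL8, RPL30 and RPS20), with -0.734 and -0.629, and the 4 on chromosome 12 (RPL6, RPL41, RPLP0 and RPS26), with -0.778 and -0.895, and the 3 on chromosome 15. Chromosomes 1, 2, 3, 5, 9, 11, 16, 17 and X were mixed, as was chromosome 19, which holds 12 of the genes, with 8 below 0 in DMSO and 10 in PKC412, and copy number was not measured here.

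Several divergent copies of ribosomal protein genes also differed between the lines. RPL39L, a divergent copy of RPL39 known from testis and some tumours, read 87.7 and 87.9 FPKM in DMSO-treated and 64.3, 91.95 and 68.2 in PKC412-treated MDA-MB-468 cells, and 2.37 and 2.82 FPKM in DMSO-treated and 1.99, 1.97 and 1.61 in PKC412-treated ZR75-1 cells. Its level was 4.63 log2 units higher in MDA-MB-468 in DMSO (SE 0.18, adjusted p = 6.7e-07 by limma), while RPL39 itself, at 5863 and 5942 against 4299 and 5092 FPKM, did not pass (0.34 ± 0.26, SE). RPL22L1, a copy of RPL22, read 21.0 and 26.6 FPKM in MDA-MB-468 and 4.01 and 6.05 in ZR75-1 in DMSO (2.05 ± 0.25, SE), whereas RPL22 was lower in MDA-MB-468, at 275 and 267 against 372 and 425 (-0.55 ± 0.14, SE, adjusted p = 0.0131 by limma). RPS27L, a p53-responsive copy of RPS27, was lower in MDA-MB-468 like RPS27, at 39.3 and 44.1 against 105 and 163 FPKM (-1.63 ± 0.24, SE). RPL7L1 went opposite to RPL7, with 1.96 ± 0.42 (SE), and RPL36AL passed in neither agent. RPL26L1 had 0.62 ± 0.24 (SE, adjusted p = 0.0695 by limma) in DMSO and 0.78 ± 0.20 (SE, adjusted p = 0.00925) in PKC412; the difference between these values did not pass, and with adjustment for GC content the PKC412 value was 0.39 (adjusted p = 0.182). RPL10L and RPL3L were under 1 FPKM in every sample. These directions, for RPL39L, RPL22L1, RPS27L and RPL7L1 in DMSO, were the same and passed under every scaling tried. None of the paralogues passed for PKC412 in either line.

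Of the 40 biogenesis factors, 13 were higher in MDA-MB-468 and 1 lower in DMSO, with a median of 0.596, and 17 and 3 in PKC412, with a median of 0.552. Of all genes tested, 26.5% were higher and 15.9% lower in DMSO, and 37% and 21.6% in PKC412; with median-ratio rescaling the DMSO counts were 12 and 2 and with adjustment for GC content 17 and 2. NOP56, a core protein of box C/D snoRNPs, read 169 and 159 FPKM against 50.04 and 41.4 in DMSO, with 1.824 ± 0.13 (SE, adjusted p = 1.8e-05 by limma). Of the 19 translation factors and other TOP messenger RNAs, 5 were higher in MDA-MB-468 and 3 lower in DMSO, with median-ratio rescaling 1 and 2, and with adjustment for GC content 1 and 5. EIF4B, a cofactor of the eIF4A helicase, was higher in ZR75-1, at 69.5 and 101 against 21.8 and 26.5 FPKM (-1.76 ± 0.24, SE). FAU passed as higher in MDA-MB-468 (1.25 ± 0.35, SE, adjusted p = 0.0202 by limma) and, with median-ratio rescaling, did not (adjusted p = 0.0931). The mitochondrial ribosomal protein genes gave 25 higher and 11 lower of 76 in DMSO, with a median of 0.23, and 29 and 15 in PKC412, with a median of 0.269. Both medians depended on the scaling: adjusted for GC content they were 0.0363, with 21 higher and 17 lower, and -0.0338. Median-ratio rescaling gave 0.0589 and 0.0802.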

How the data were processed

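The authors sequenced TruSeq libraries on a HiSeq2000 and deposited FPKM values, 1 table per sample, from their own pipeline; the submitters' processing notes name CASAVA 1.82, TopHat2 and hg19. Their methods state triplicate treatments, and 2 DMSO samples per line were analysed here. The 16071 genes whose group mean passed 0.1 FPKM in any of the 4 groups were tested with limma 3.58.1 (R 4.3.3) on log2(FPKM + 1), with 1 mean per group, a trend and 6 residual degrees of freedom. Benjamini-Hochberg adjustment ran over all genes tested, and an adjusted p under 0.05 counts as passed. Fold changes on this scale understate changes of low genes. GC content, length and shared stretches came from GENCODE release 29, which held 88.1% of the symbols. Tested on simulated data for PKC412 in MDA-MB-468 (15626 genes), the fit found 54 of 100 genes changed 2-fold and 82 of 100 changed 4-fold. Recovery was not tested for the ribosomal protein genes alone. Their levels moved together by sample, with an SD of their median within groups of 0.2337 on the log2 scale. The simulated rates are therefore not taken as the rates for the ribosomal protein genes. The genes and lists were chosen with earlier results of these data known. Genes were named if near 0, highest, most or least variable, most different in a comparison (at most 8 each way, or the 3 largest values where fewer than 3 passed), or on the stalk, 5S particle, anaemia or paralogue lists, plus at most 4 of each other list by adjusted p. Alternatives changed the pseudocount, filter, scaling, trend, samples fitted, pairing and GC or length adjustment, or left out each sample in turn. The adjustments for GC content or length also rescale each sample to its expressed genes.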

Additional observations from a re-analysis of the deposited data

How the results depend on the processing

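For PKC412 against DMSO and for the difference of its effect between the lines, 0 of the 77 genes passed under each of the 12 other settings and each of the 10 fits that left out 1 sample; the lowest adjusted p by limma was 0.0771 for MDA-MB-468 and 0.152 for ZR75-1. Leaving out a sample moved the median log2 fold change between -0.506 and -0.252 in MDA-MB-468 and between -0.461 and -0.218 in ZR75-1. Scaling each sample to the ribosomal protein genes themselves gave medians of -0.0118 and -0.0316, since that setting removes what they share. Genes past a 3-fold ratio of mean FPKM ranged from 0 to 1 in each line. The 1 gene was RPL21, whose values are uncertain. It was past 3-fold without MDA-MB-468 PKC412 replicate 2, without ZR75-1 DMSO replicate 2 or without ZR75-1 PKC412 replicate 3. Between the lines in DMSO, 16 genes passed with median-ratio rescaling and 14 with adjustment for GC content, against 27, and leaving out a sample gave 5 to 30; in PKC412 it gave 21 to 43, against 34, with 21 without MDA-MB-468 PKC412 replicate 3. Taken against expressed genes other than the 77, their sum was 31.6% and 27.7% in MDA-MB-468 and 37.0% and 32.5% in ZR75-1 (DMSO and PKC412), and without the 20 highest other rows the shares were 26.4%, 23.3%, 30.6% and 27.3%. RPL15 reversed to -0.0157 with median-ratio rescaling and -0.0409 with adjustment for GC content in MDA-MB-468, and in ZR75-1 its value ran from -0.114 without DMSO replicate 1 to 0.475 without DMSO replicate 2; the cause was not tested. Of the other values for single genes, 738 kept their direction and side of the threshold and 107 kept the direction but no longer passed. With the replicate number as a block, 0 genes passed for PKC412 in either line, and 21 in DMSO and 31 in PKC412 between the lines. Same-numbered DMSO and PKC412 samples correlated at -0.688 and -0.605 in MDA-MB-468 and at 0.077 and -0.621 in ZR75-1. Across the lines the values were 0.848 for both numbers in DMSO, and -0.195, 0.534 and -0.003 in PKC412. With 2 samples a group the 2 DMSO values are equal by construction, but their size is not fixed by it. The DMSO replicates thus differed in a similar way in both lines, and whether they share a batch was not tested. The other values were mixed, so the numbers were not taken to pair the samples. Scaling to the ribosomal protein genes, the adjustment for GC content and length together, and the shares without the 20 highest rows were chosen after seeing the data. Depth is unknown, so no counting error can be given.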
